A study of Mus musculus with 6 samples.

Results

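The genes described here are the mouse zinc finger genes whose symbols consist of Zfp and a number, without Zfp36, which codes for an RNA-binding protein of another fold. The deposited table of 55401 genes held 375 such rows with 374 different symbols, and 250 of them reached 0.5 FPKM (fragments per kilobase of transcript and mega mapped fragments, a level scaled for length and library size) in at least 3 of the 6 libraries. The other 125 included 28 rows listed at 0 in all libraries and 25 rows with at least 0.5 FPKM in only 1 or 2 libraries. The cells were bone-marrow-derived macrophages of mice, grown for 7 days in medium containing conditioned medium of L929 cells. One group of 3 samples received 5 µM L-OHP, the usual short name of the platinum drug oxaliplatin, for 12 h. The other group of 3 samples received 250 µg/ml fucoidan, a sulphated polysaccharide of brown algae, for 12 h and then the same L-OHP exposure, and is called L-OHP+FUC. All samples thus carried the platinum drug, and untreated cells and cells given fucoidan alone were not analysed here. The question was which of these genes differed between macrophages with and without the fucoidan pretreatment, and whether they did so more or less often than other genes of similar level.

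C2H2 zinc fingers are short protein folds in which a pair of cysteines and a pair of histidines hold a zinc ion, and arrays of them read DNA sequence. The largest group of such genes in mammals joins its fingers to a KRAB box, which binds the corepressor Trim28 and through it brings histone methylation, heterochromatin proteins and silencing to the bound site. Many of these genes lie in clusters of recently duplicated copies, and many of their products bind retroelements. Other numbered Zfp genes, grouped with them by nomenclature alone, code for promoter-binding activators, RNA-binding proteins, ubiquitin ligases or ribosome assembly factors.

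The coding sequence of the first finger is shown for 5 members that the results turn on, because the genes differ in base composition and their change between the groups moved with it. Capitals mark the codons of the cysteines and histidines that hold the zinc ion, and the sequences are given 5′ to 3′ on the coding strand from GRCm38 (the assembly of mm10).
Zfp966 (chr2:175921217-175921279, minus strand): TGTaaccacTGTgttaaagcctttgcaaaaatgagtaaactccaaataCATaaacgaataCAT
Zfp148 (chr16:33466912-33466974, plus strand): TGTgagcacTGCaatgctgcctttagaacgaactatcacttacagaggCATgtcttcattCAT
Zfp445 (chr9:122853399-122853461, minus strand): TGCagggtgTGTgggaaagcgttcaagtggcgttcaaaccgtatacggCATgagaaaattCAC
Zfp579 (chr7:4994707-4994769, minus strand): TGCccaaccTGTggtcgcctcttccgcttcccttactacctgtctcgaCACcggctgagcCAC
Zfp746 (chr6:48064174-48064236, minus strand): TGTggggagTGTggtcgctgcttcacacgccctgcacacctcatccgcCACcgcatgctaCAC
All 5 stretches are 63 bases long and share the spacing of the capitals. GC content was 31.7% in that of Zfp966, 42.9% in Zfp148, 49.2% in Zfp445, 61.9% in Zfp579 and 63.5% in Zfp746.

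All 8 macrophage markers were detected, with a summed level of 12390 to 17862 FPKM in L-OHP and 13315 to 14312 FPKM in L-OHP+FUC. The marker lists of dendritic cells, T cells, B cells, erythroid cells and mast cells each summed to less than 1 FPKM in every library. Neutrophil markers summed to 3.23 to 4.26 FPKM in L-OHP and 5.23 to 5.97 FPKM in L-OHP+FUC, and endothelial markers to 2.53 to 3.00 and 1.47 to 1.62 FPKM. Fibroblast and stroma markers summed to 4.55 to 11.3 and 6.92 to 7.25 FPKM. The part of these cells in the results was not tested, and in bulk RNA fewer cells of a type and less RNA per cell cannot be told apart. The values hold no read counts, so the depth behind each value is unknown. Whether the replicates of a group were separate cultures or animals is not stated in the labels. The p-values therefore refer to the spread among these samples, which may be technical.

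The numbered Zfp genes were low in these macrophages, with a median of 1.83 FPKM over the 6 libraries against 4.80 FPKM over all 12084 tested genes. Their means ran from 0.414 to 16.7 FPKM, 217 of the 250 lay under 5 FPKM and 8 lay above 10 FPKM. In the comparison of L-OHP+FUC with L-OHP, 79 fell (31.6%) and 5 rose (2%) at an adjusted p under 0.05 in limma, while 166 did not pass. Over all tested genes 19.3% fell and 7.67% rose. With quantile normalization, which moved the median of all tested genes from -0.10 to 0.03, 34 members fell (13.6%) and 15 rose (6%), against 11.2% and 13% of all tested genes. The median log2 fold change, given throughout as L-OHP+FUC relative to L-OHP on the log2(FPKM + 1) scale, was -0.34 for the members and -0.10 for all tested genes. This scale understates the change of low genes. The quartiles of the members lay at -0.58 and -0.10, and the members that fell did so by -0.31 to -1.42. The groups did not overlap for 133 members, of which 122 (48.8%) were lower in every L-OHP+FUC library and 11 were higher. The corresponding shares over all tested genes were 30.9% and 16.1%.

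Of the 250 members, 7 passed the level threshold through L-OHP libraries alone, 4 of them called lower, and 0 passed through L-OHP+FUC libraries alone. The count is therefore also given for members that met the threshold in all 6 libraries. This stricter rule in turn leaves out members whose level fell below the threshold in any library. Among the 183 members at or above 0.5 FPKM in all 6 libraries, 58 fell (31.7%) and 5 rose, against 17.7% lower among the 10499 tested genes that met the same condition. The members nearest to the threshold, judged by the highest level that 3 libraries reached, were Zfp446 at 0.502 FPKM and Zfp229 at 0.506 FPKM just inside, and Zfp882 at 0.491 FPKM and Zfp493 at 0.489 FPKM just outside.

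The libraries of a group did not contribute equally. The summed level of the 250 members was 786, 713 and 836 FPKM in L-OHP replicates 1, 2 and 3 and 540, 583 and 656 FPKM in L-OHP+FUC replicates 1, 2 and 3. The groups did not overlap, with 778.6 ± 61.7 against 593.3 ± 58.7 FPKM (SD, n = 3 each). L-OHP replicate 3 held the highest value of 130 members and L-OHP+FUC replicate 1 the lowest value of 134. The closest libraries of opposite groups were L-OHP replicate 2 and L-OHP+FUC replicate 3, whose median deviations from the gene means were 0.06 and -0.05 (log2).

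**Figure D1:**
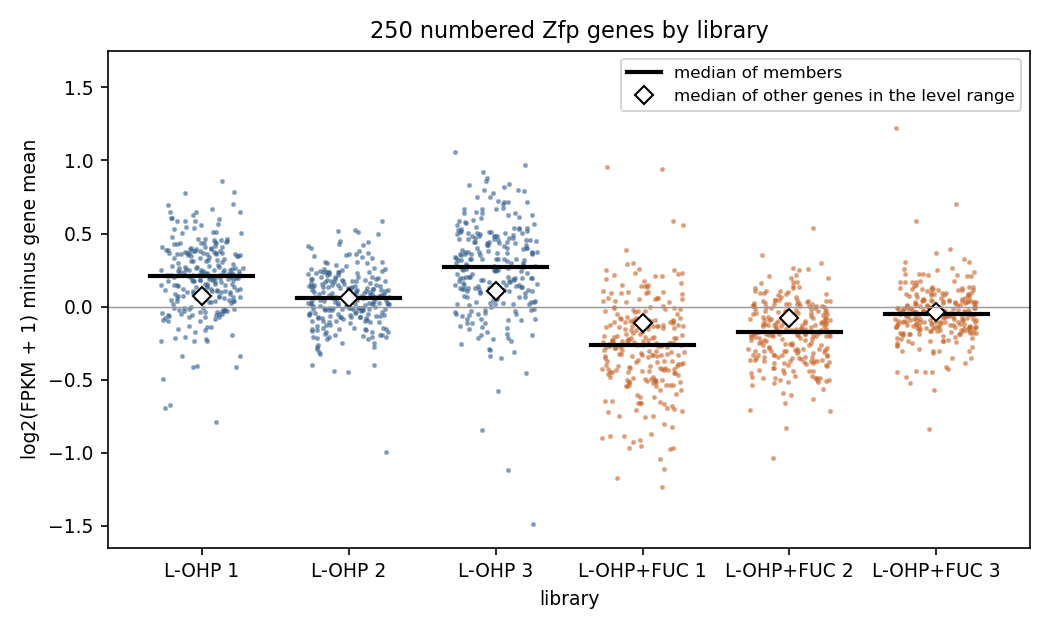
Each point is 1 of the 250 numbered Zfp genes, plotted as its log2(FPKM + 1) in a library minus its mean over the 6 libraries; bars are the members' medians and diamonds the medians of the 6967 other tested genes in the same range of level. The members' medians are 0.21, 0.06 and 0.27 in L-OHP and -0.26, -0.17 and -0.05 in L-OHP+FUC, and those of the other genes lie nearer to 0 in 5 of the 6 libraries.

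The count of members that fell, but not the sign of their median, depended on single libraries. Without L-OHP replicate 2 or L-OHP+FUC replicate 3, 88 (35.2%) and 78 (31.2%) members fell, against 18.7% and 17.3% of all tested genes. Without L-OHP replicate 1, 19 fell (7.6%, against 8.52%), and without L-OHP replicate 3, 33 fell (13.2%, against 13%). Without L-OHP+FUC replicate 1 the number was 16 (6.4%, against 7.59%) and without L-OHP+FUC replicate 2 it was 18 (7.2%, against 6.91%). In those 4 settings the members' share was close to that of all genes, so that the excess of lower calls among numbered Zfp genes rested on libraries L-OHP 1, L-OHP 3, L-OHP+FUC 1 and L-OHP+FUC 2 all being present. The members' median stayed between -0.39 and -0.29 in all 6 settings, and that of all tested genes between -0.11 and -0.09.

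Set beside genes of similar level, the members were lower more often in all but the lowest band. Between 0.594 and 8.09 FPKM, the range that holds the middle 224 members, 73 members fell (32.6%) and 3 rose (1.34%), with a median of -0.34. Of the 6967 other tested genes in that range 21.2% fell and 4.25% rose, with a median of -0.16. Below 1 FPKM 17.7% of 62 members and 22.2% of 1538 other genes fell. From 1 to 2 FPKM the shares were 36.7% and 22.6%, from 2 to 5 FPKM 36.8% and 21.7%, and from 5 to 10 FPKM 36% and 20%. Within the range of level the excess depended on the setting. It stayed with quantile normalization (13.4% of members and 10.3% of other genes) and with the replicate number as a block (27.7% and 16.4%). It also stayed without L-OHP replicate 2 (35.7% and 20.1%) or L-OHP+FUC replicate 3 (32.6% and 19.1%). It nearly vanished or turned when any 1 of the other libraries was left out. The shares were 8.48% of members and 9.39% of other genes without L-OHP replicate 1, and 12.9% and 13.4% without L-OHP replicate 3. They were 7.14% and 8.31% without L-OHP+FUC replicate 1, and 8.04% and 7.79% without L-OHP+FUC replicate 2. After the correction for GC content and length described below they were 17.9% and 12.8%, and with the replicate number as a block added to it 7.14% and 7.31%.

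**Figure D2:**
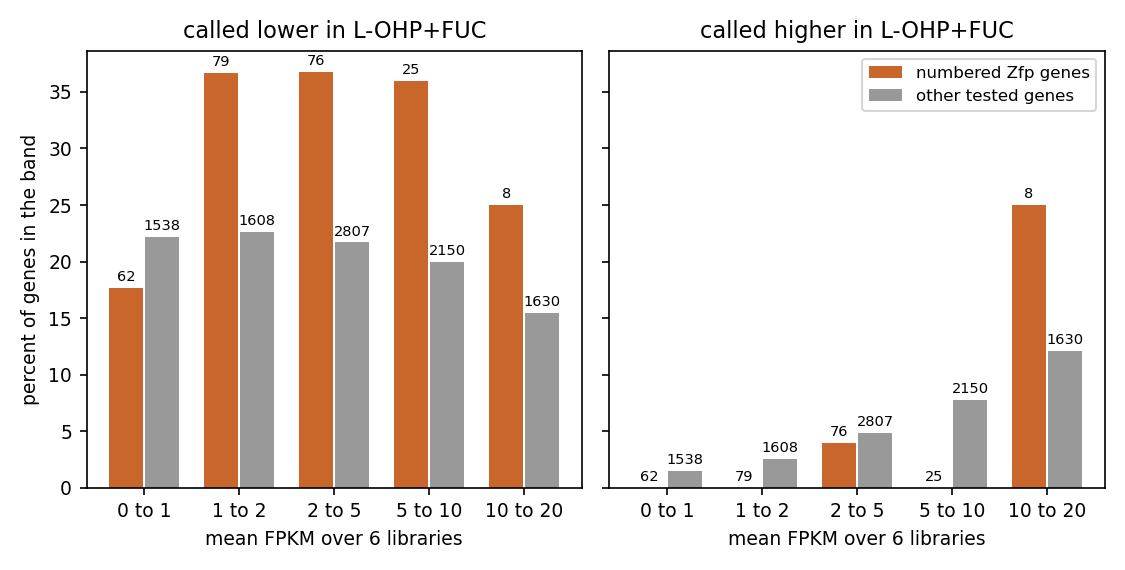
Bars give the percent of genes called lower (left) or higher (right) in L-OHP+FUC at an adjusted p under 0.05 in limma, by mean FPKM over the 6 libraries, with the number of genes in each band above its bar. The members' bars for lower calls exceed those of the other genes in 4 of the 5 bands; the top band holds 8 members.

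Base composition differed between the members and other genes and moved with the change. The longest transcript of the median member had 44.1% GC, against 49.5% over all tested genes, and 138 members (55.2%) were at or below 45% GC, against 26.1% of all tested genes. Among the 99 members at or below 42% GC, 46 fell (46.5%) and 0 rose, with a median of -0.57. Among the 40 members above 54% GC, 4 fell and 4 rose, with a median of 0.01. Other genes showed the same order at a smaller size: in the members' range of level 34.8% of 958 genes at or below 42% GC fell, with a median of -0.38, and 11.8% of 1587 genes above 54% GC fell, with a median of 0.02. The larger share of members at or below 42% GC also rested on single libraries. Without L-OHP replicate 1, L-OHP replicate 3, L-OHP+FUC replicate 1 and L-OHP+FUC replicate 2 in turn, the 46 became 16, 18, 13 and 14 (16.2%, 18.2%, 13.1% and 14.1%), against 16%, 20.4%, 15.3% and 13.7% of the other genes. Across the 250 members the correlation of the log2 fold change with GC content was r = 0.60 and across all tested genes 0.32. Genes share their libraries and are not independent replicates, so these are descriptions.

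The trend with GC content differed in size among the libraries of a group. Over all tested genes, the deviation of a library from the gene means changed per 10 points of GC content by -0.14, -0.003 and -0.19 (log2) in L-OHP replicates 1, 2 and 3 and by 0.21, 0.13 and 0.002 in L-OHP+FUC replicates 1, 2 and 3. The members at or below 42% GC followed it, with medians of 0.35, 0.07 and 0.46 in L-OHP and -0.49, -0.29 and -0.07 in L-OHP+FUC. These slopes are relative to the mean of the same 6 libraries, and each L-OHP slope lay below each L-OHP+FUC slope. The libraries with the smallest slopes in size, L-OHP replicate 2 and L-OHP+FUC replicate 3, were also those in which the members deviated least. After each library was corrected for GC content and transcript length, 44 members fell (17.6%) and 7 rose (2.8%), with a median of -0.16, against 12.1% lower, 11.3% higher and a median of 0.01 over all tested genes. Of the 79 members called lower before the correction 40 were still called, and of the 5 called higher 4 were. At or below 42% GC, 22.2% of members fell after it, with a median of -0.22. Of the other genes in the members' range of level at the same GC content, 13.8% fell, with a median of 0.03. With the replicate number as a block added to the correction these shares were 8.08% and 7.72%. Whether the trend is a property of the cells or of the libraries was not tested.

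**Figure D3:**
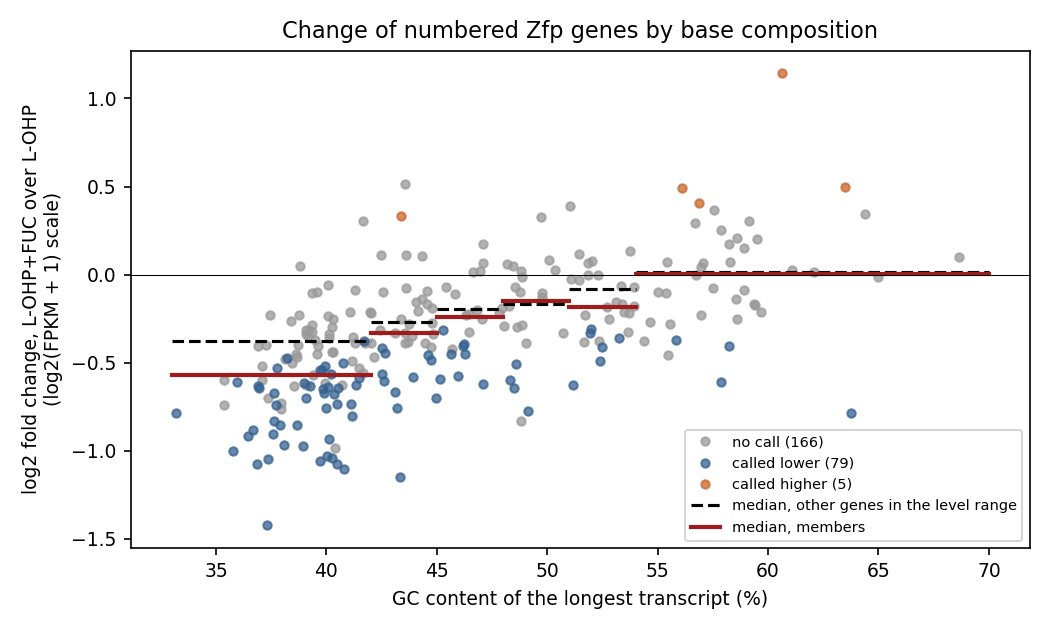
Each point is a member, placed by the GC content of its longest transcript (percent) and its log2 fold change; colours mark the 79 called lower, the 5 called higher and the 166 without a call, and the horizontal lines are medians by GC band. The members' median runs from -0.57 at or below 42% GC to 0.01 above 54% GC, and that of other genes in the same range of level from -0.38 to 0.02.

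The smallest p among the members that fell was that of Zfp579 (chr7:4983483-4996158, minus strand), a gene of 8 fingers without a KRAB box by the pattern used. It was found at 2.60, 2.57 and 2.85 FPKM in replicates 1, 2 and 3 of L-OHP and, in those of L-OHP+FUC, at 1.13, 1.27 and 1.00 FPKM. Values of the following genes are given in this order. The groups were far apart relative to their spread, with a log2 fold change of -0.79 ± 0.10 (SE) and an adjusted p of 0.00514 in limma. With 63.8% GC in its longest transcript it stood apart from most members that fell, and after the correction its value was -0.96 (adjusted p = 0.00776). Its neighbour Zfp628, which lies in the same cluster on chromosome 7 and has 63.5% GC, was called in the other direction, as described with the members that rose.

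Zfp966 had the largest fall, from 2.33, 1.93 and 2.87 FPKM in L-OHP to 0.219, 0 and 0.609 FPKM in L-OHP+FUC, where 0 is a value listed at 0. This is a log2 fold change of -1.42 ± 0.19 (SE, adjusted p = 0.00690) and after the correction -1.10 (adjusted p = 0.00651). However, 89.6% of the 50-base words of its longest transcript also occur in other genes, chiefly Zfp968, so the value may belong to a group of copies.

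Zfp445, one of the KRAB zinc finger genes that protect genomic imprints, was the most abundant of the 10 members with the smallest p among those that fell (chr9:122844529-122866006, minus strand). Its levels were 10.7, 8.93 and 11.9 FPKM in L-OHP, against 3.13, 3.87 and 5.86 FPKM in L-OHP+FUC. Every L-OHP+FUC library lay below every L-OHP library, and the log2 fold change was -1.15 ± 0.20 (SE, adjusted p = 0.0113). The fall was called in all 16 alternative settings, and the corrected value was -0.84 (adjusted p = 0.0108).

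A further 5 members of lower level, all but Zfp397 with a KRAB box by the pattern used, showed the same separation of groups. Zfp397 was at 3.91, 3.71 and 4.92 FPKM in L-OHP and 1.31, 1.21 and 2.17 FPKM in L-OHP+FUC (-1.03, adjusted p = 0.00999). Zfp950 was at 1.92, 1.31 and 1.71 FPKM against 0.226, 0.138 and 0.648 FPKM (-0.998, adjusted p = 0.0104). Zfp677 was at 3.57, 2.53 and 3.57 FPKM against 0.817, 1.08 and 1.59 FPKM (-0.97, adjusted p = 0.0114). Each of these 3 was also called in limma with any 1 of the 6 libraries left out. Zfp938 went from 2.28, 1.49 and 2.54 FPKM to 0.553, 0.732 and 0.729 FPKM (-0.88, adjusted p = 0.0105). Zfp970 went from 2.64, 1.35 and 2.48 FPKM to 0.353, 0.404 and 0.586 FPKM (-1.10, adjusted p = 0.0102), with 57.2% of its 50-base words shared, chiefly with Gm14288.

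For 2 of the 10 members with the smallest p the call was lost with the correction for GC content and length. Zfp974, a gene of 21 fingers, was at 1.31, 1.05 and 1.28 FPKM in L-OHP and 0.488, 0.328 and 0.471 FPKM in L-OHP+FUC (-0.63, adjusted p = 0.00984), and at -0.23 (adjusted p = 0.197) after it. It is 1 of the 7 members that passed the level threshold through L-OHP libraries alone, so that a low value in L-OHP+FUC came with its selection. Zfp148, a factor that binds GC-rich promoters, was at 4.02, 4.04 and 4.71 FPKM against 2.09, 2.06 and 2.77 FPKM (-0.67, adjusted p = 0.0118), and at -0.13 (adjusted p = 0.275) after it. The longest transcripts of both are below 40% GC.

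**Figure D4:**
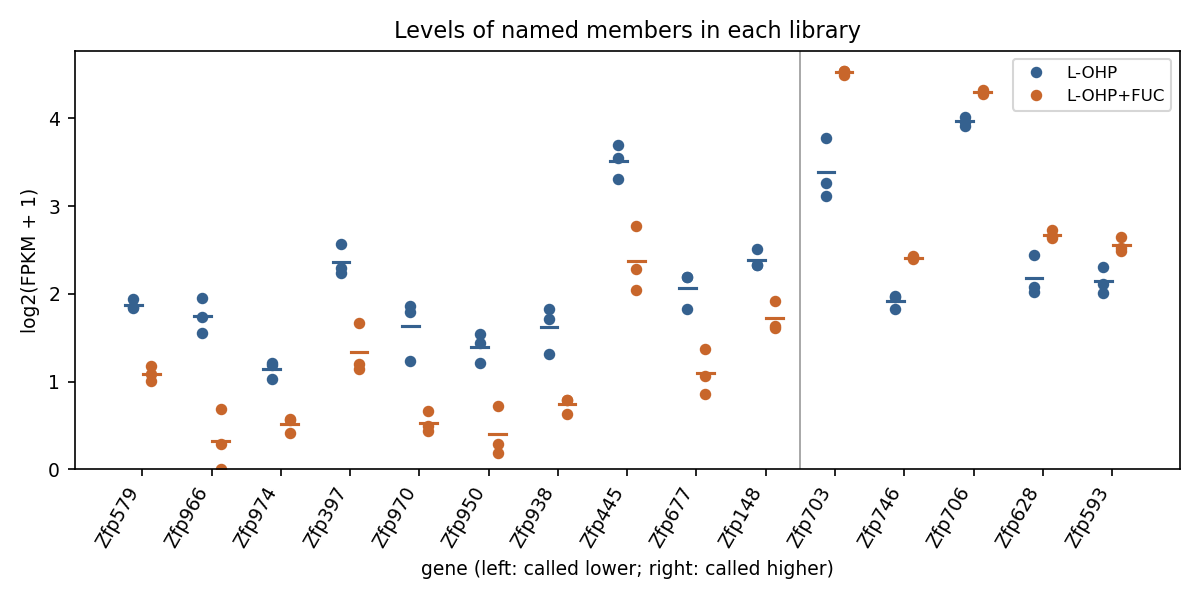
Points are the log2(FPKM + 1) of single libraries and bars the group means, for the 10 members with the smallest p among those that fell and the 5 that rose. The groups are separate in all 15 genes.

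Of the 5 members that rose, Zfp703 changed most. It codes for a nuclear corepressor cofactor of the Noc/Elbow family and has 0 fingers by the pattern used. Its levels were 8.60, 12.7 and 7.64 FPKM in L-OHP, against 22.3, 21.6 and 22.3 FPKM in L-OHP+FUC. All 3 L-OHP+FUC libraries lay within 1 FPKM of each other and above every L-OHP library, with a log2 fold change of 1.14 ± 0.17 (SE, adjusted p = 0.00830) and a corrected value of 0.96 (adjusted p = 0.00684). It was called in all 16 alternative settings and was the only member of the 5 called higher to change by 2-fold or more on this scale. By as much, 9 of the 250 members fell and were called, against 366 of the 12084 tested genes.

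The other 4 changes were smaller. Zfp746, which codes for the parkin substrate PARIS, was at 2.55, 2.89 and 2.93 FPKM in L-OHP and 4.34, 4.38 and 4.25 FPKM in L-OHP+FUC (0.49, adjusted p = 0.0118), with an adjusted p of 0.0524 without L-OHP+FUC replicate 2. Zfp706, a protein of 76 residues with a single finger, was at 14.1, 14.6 and 15.2 FPKM against 18.3, 19.1 and 18.8 FPKM (0.33, adjusted p = 0.0218). Its call was lost without L-OHP replicate 1 or L-OHP+FUC replicates 1 or 2, with an adjusted p of up to 0.0918. It was the only 1 of the 5 with a GC content under 45%, and its corrected value was larger, at 0.57. Zfp628 was at 3.06, 4.42 and 3.21 FPKM against 5.31, 5.63 and 5.23 FPKM (0.50, adjusted p = 0.0316). Zfp593, which assists assembly of the large ribosomal subunit, was at 3.33, 3.96 and 3.04 FPKM against 5.26, 4.61 and 4.74 FPKM (0.41, adjusted p = 0.0353). The calls of Zfp628 and Zfp593 were lost when any 1 library other than L-OHP replicate 2 was left out, with an adjusted p of up to 0.104 and 0.114.

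The most abundant members were mixed in direction. Besides Zfp706 and Zfp703 they included Zfp91, a ubiquitin ligase of the non-canonical NF-κB pathway, at 17.1, 18.4 and 19.1 FPKM in L-OHP and 13.4, 14.5 and 15.9 FPKM in L-OHP+FUC. The groups of Zfp91 did not overlap, but the change did not pass (-0.30, adjusted p = 0.0561 in limma). Zfp513 was at 17.4, 15.96 and 12.3 FPKM against 14.4, 18.4 and 13.7 FPKM, with groups that overlapped widely (0.03, adjusted p = 0.913). Zfp710 was at 12.1, 15.96 and 10.9 FPKM against 9.22, 8.25 and 9.85 FPKM (-0.46, adjusted p = 0.0594). Zfp991 varied most within a group, at 13.8, 8.70 and 17.7 FPKM against 3.58, 8.79 and 12.0 FPKM (-0.74, adjusted p = 0.216), and 87.0% of its 50-base words are shared, chiefly with the pseudogene Znf41-ps.

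Members with roles in RNA binding and splicing were lower in 4 of 6 cases, where 31.6% of all members and 19.3% of all tested genes were lower. Zfp207, also a spindle protein, was at 14.7, 13.5 and 15.03 FPKM in L-OHP and 10.3, 10.9 and 11.5 FPKM in L-OHP+FUC (-0.37, adjusted p = 0.0220). Zfp106 was at 14.7, 13.5 and 15.9 FPKM against 7.91, 8.95 and 10.9 FPKM (-0.62, adjusted p = 0.0166). Zfp830 was at 11.8, 10.8 and 10.2 FPKM against 6.502, 7.91 and 7.85 FPKM (-0.51, adjusted p = 0.0176). In all 3 genes the groups were separate. Zfp638, which codes for a nuclear matrix protein, fell by 0.93 (adjusted p = 0.0227), and Zfp326 (-0.45, adjusted p = 0.0534) and Zfp346 (-0.38, adjusted p = 0.414) did not pass. After the correction 1 of the 6, Zfp830, was called. Without L-OHP replicate 1, L-OHP+FUC replicate 1 or L-OHP+FUC replicate 2 the count was 0 of 6, and without L-OHP replicate 3 it was 2.

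Among broadly expressed promoter-binding factors 6 of 9 fell and 0 rose, with a list median of -0.48, where 19.3% of all tested genes fell. Zfp281, which binds GC-rich promoters in stem cells, was at 7.74, 8.07 and 8.23 FPKM in L-OHP and 3.91, 4.34 and 5.99 FPKM in L-OHP+FUC (-0.67, adjusted p = 0.0181). Zfp384 was at 9.93, 10.8 and 9.59 FPKM against 7.47, 7.12 and 7.46 FPKM (-0.41, adjusted p = 0.0162). Zfp143, an activator of small nuclear RNA and protein-coding promoters, was at 5.15, 4.34 and 4.38 FPKM against 2.79, 3.21 and 3.05 FPKM (-0.48, adjusted p = 0.0166). No library of one group reached the other group in these 3 genes, and all 3 were also called after the correction. Zfp148 (above), Zfp24 (-0.50, adjusted p = 0.0321) and Zfp131 (-0.54, adjusted p = 0.0371) were not called after it. Zfp263 was at 8.16, 7.63 and 8.78 FPKM against 6.57, 6.43 and 14.2 FPKM, so that L-OHP+FUC replicate 3 alone set its sign (0.05, adjusted p = 0.911, and -0.29 without that library). Zfp219 (0.01) and Zfp202 (-0.22) did not pass. The count of 6 became 1 without L-OHP replicate 1, L-OHP+FUC replicate 1 or L-OHP+FUC replicate 2, and 4 without L-OHP replicate 3.

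The repressors of retroelements and imprints comprised 4 tested members, of which 3 fell, where 19.3% of all tested genes did. Zfp809, which silences murine leukaemia proviruses, was at 2.45, 2.36 and 3.50 FPKM in L-OHP and 1.13, 1.36 and 2.05 FPKM in L-OHP+FUC (-0.59, adjusted p = 0.0477), and kept its call only without L-OHP+FUC replicate 3, with an adjusted p of up to 0.143 in the other settings that left out a library. Zfp932, which acts on endogenous retroviruses of the ERVK class, was at 3.11, 1.82 and 3.62 FPKM against 0.660, 0.999 and 0.821 FPKM (-1.05, adjusted p = 0.0127), with an adjusted p of 0.0502 without L-OHP+FUC replicate 1. The groups of both genes were separate, but 45.2% of the 50-base words of Zfp932 are shared, chiefly with its relative Gm15446. Zfp568, which represses a placental transcript of Igf2, ranged over 0.412 to 1.70 FPKM in L-OHP and 0.658 to 1.42 FPKM in L-OHP+FUC, and its value of 0.07 (adjusted p = 0.871) changed sign with the library left out. Zfp57 and Zfp708 were under the level threshold.

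The remaining role lists changed in few members, where 19.3% of all tested genes fell and 7.67% rose. Of the ribosome and translation members, Zfp593 rose while Zfp598, a ligase that marks collided ribosomes, was at 8.87, 9.35 and 8.44 FPKM in L-OHP and 8.12, 8.06 and 7.17 FPKM in L-OHP+FUC (-0.17, adjusted p = 0.189). Zfp622, another factor of the large subunit, was at 4.87, 6.35 and 4.55 FPKM against 6.07, 5.41 and 5.66 FPKM (0.11, adjusted p = 0.538), with overlapping groups. Of 5 signalling members, Zfp746 rose and Zfp369 fell (-0.64, adjusted p = 0.0119), while Zfp91, Zfp110 (-0.22, adjusted p = 0.315) and the SUMO ligase Zfp451 (-0.21, adjusted p = 0.165) did not pass. Of 5 tested chromatin complex partners Zfp592 fell, from 8.46, 8.07 and 8.31 FPKM to 6.39, 6.37 and 6.35 FPKM (-0.33, adjusted p = 0.0221, corrected adjusted p = 0.0763). Zfp516 (0.13, adjusted p = 0.356) and Zfp217 (-0.23, adjusted p = 0.178) had overlapping groups. Of 4 tested blood and immune cell factors Zfp318, which controls the choice between IgM and IgD transcripts in B cells, fell from 1.95, 1.38 and 2.49 FPKM to 0.575, 0.884 and 0.940 FPKM (-0.70, adjusted p = 0.0240, corrected adjusted p = 0.181). Zfp335 (-0.17, adjusted p = 0.262) and Zfp609 (-0.00, adjusted p = 0.976) had overlapping groups. The calls of Zfp592 and Zfp318 were lost without L-OHP replicates 1 or 3 or L-OHP+FUC replicates 1 or 2, with an adjusted p of up to 0.0858 and 0.0819.

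A KRAB box was found by a sequence pattern in the translated coding sequence of 135 of 248 members, of which 48 fell (35.6%) and 1 rose, with a median of -0.42. Of the 113 without the pattern 31 fell (27.4%) and 4 rose, with a median of -0.19. Among all tested genes 19.3% fell and 7.67% rose. The classes also differed in composition and level, with a median GC content of 41.2% and 50.4% and a median level of 1.27 and 2.87 FPKM. Within the members at or below 45% GC, 41 of 101 with the pattern (40.6%) and 16 of 35 without it (45.7%) fell. Above 45% GC the shares were 7 of 34 (20.6%) and 15 of 78 (19.2%). The difference between the classes was not tested. A KRAB box that diverges from the pattern is counted as absent. Without L-OHP replicate 1, L-OHP replicate 3, L-OHP+FUC replicate 1 and L-OHP+FUC replicate 2 in turn, the 48 became 11, 17, 9 and 12. The 31 became 8, 16, 7 and 6. These are 8.15%, 12.6%, 6.67% and 8.89% with the pattern and 7.08%, 14.2%, 6.19% and 5.31% without it. The shares of all tested genes were 8.52%, 13%, 7.59% and 6.91%, so both classes were then close to them.

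The number of fingers ran from 0 to 36 with a median of 10, and its relation to the change was not tested. Of the 23 members with 0 to 2 fingers 6 fell and 3 rose, with a median of -0.06. With 3 to 6 fingers 11 of 35 fell and 1 rose (median -0.24), and with 7 to 10 fingers 21 of 68 fell and 0 rose (median -0.28). With 11 to 15 fingers 26 of 79 fell and 0 rose (median -0.42), and with 16 or more 15 of 43 fell and 1 rose (median -0.36). The shares that fell ran from 26.1% to 34.9%, near the 31.6% of all members, against 19.3% of all tested genes. Among the genes that rose, 3 of 5, Zfp703, Zfp706 and Zfp593, had at most 1 finger. Median GC content ran from 48.8% in the class of fewest fingers to 41.2% in the class of most.

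Genes of corepressors and silencing factors, among them Trim28, through which KRAB proteins act, were measured beside the members. The list is broader than the partners of KRAB proteins, so its counts are not those of that pathway alone. Of the 29 genes listed 13 fell (44.8%) and 1 rose (3.45%), with a median of -0.35. The shares over all tested genes were 19.3% and 7.67%. The gene that rose was Trim28, the direct partner of the KRAB box, at 22.3, 19.0 and 19.4 FPKM in L-OHP and 28.7, 26.6 and 27.4 FPKM in L-OHP+FUC (0.43, adjusted p = 0.0187). Its groups were separate, while its adjusted p was 0.119 after the correction and up to 0.0698 without L-OHP+FUC replicate 1 or 2. Setdb1, the methyltransferase recruited by Trim28, was at 7.28, 6.37 and 8.43 FPKM against 4.45, 5.23 and 5.44 FPKM (-0.47, adjusted p = 0.0337), and lost its call when any 1 library other than L-OHP replicate 2 was left out, with an adjusted p of up to 0.107.

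The 4 other genes of the list with the smallest p, chosen for that, were Tasor, Atrx, Ehmt1 and Zmynd8. Tasor, a subunit of HUSH, was at 2.96, 3.07 and 3.60 FPKM in L-OHP and 0.921, 0.972 and 1.48 FPKM in L-OHP+FUC (-0.99, adjusted p = 0.00635). Atrx, a remodeller of heterochromatin, was at 4.62, 3.61 and 5.24 FPKM against 0.447, 1.03 and 1.77 FPKM (-1.44, adjusted p = 0.0104). Both were called with any 1 library left out and after the correction, as was Mphosph8, another HUSH subunit, which was chosen after its values were seen (-1.33, adjusted p = 0.0137). Pphln1, a further HUSH subunit, did not pass (-0.28, adjusted p = 0.171, overlapping groups), nor did the remodeller Chd4 (-0.23, adjusted p = 0.106), both likewise chosen. The methyltransferase Ehmt1 fell from 2.68, 3.32 and 3.18 FPKM to 1.81, 1.601 and 1.67 FPKM (-0.59, adjusted p = 0.0106). The reader Zmynd8, which binds the zinc finger protein Zfp592, fell from 7.26, 6.70 and 7.53 FPKM to 4.26, 4.52 and 5.19 FPKM (-0.53, adjusted p = 0.0130), with an adjusted p of 0.0566 without L-OHP+FUC replicate 2. After the correction 6 of the 29 were lower (20.7%, against 12.1% of all tested genes) and 1, other than Trim28, was higher. The count of 13 became 6, 8, 5 and 4 without L-OHP replicate 1, L-OHP replicate 3, L-OHP+FUC replicate 1 and L-OHP+FUC replicate 2. These are 20.7%, 27.6%, 17.2% and 13.8%, against 8.52%, 13%, 7.59% and 6.91% of all tested genes.

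Because several of these genes code for promoter-binding factors, the members' own promoters were searched for 6 motifs, on both strands, in RefSeq windows of 300 bases (GRCm38.p6), from 250 bases before to 50 after the start. A window was found for 209 members. The motif bound by Zfp143, ACTACA followed by any 2 bases and TCC, occurred in 41 of them (19.6%), against 2.27% of the windows of all 27025 genes and 5.50% of those of tested genes. Of the 122 members with both a window and a KRAB pattern 32 held it (26.2%), and of the 67 members with a window that fell 11 did (16.4%). The other 5 motifs stood nearer to the windows of tested genes. The ETS motif CCGGAAG was in 24.9% of members, 9.93% of all windows and 22.3% of those of tested genes. The NRF1 motif (GCGC, any base and TGCGC) was in 9.57%, 5.19% and 12.6%, and the YY1 motif (AA, any base, ATG and GCGGC) in 4.31%, 1.17% and 3.19%. The CRE motif TGACGTCA was in 4.31%, 2.03% and 3.72%, and the TATA motif TATAAA in 7.18%, 15.7% and 8.47%. No motif contains the letters of another, and each was counted separately. A match is a description of the letters and not a binding site. Duplicated copies may share promoter sequence, so the matches of members are not all independent occurrences. How far this raised the members' shares was not tested.

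As examples of the Zfp143 motif, 100 bases are given for 4 members, those with the motif and the smallest p among the members that fell. The sequences run 5′ to 3′ on the strand of the gene, with the match in capitals. In all 4 the match is the reverse complement of the letters above. Zfp455, Zfp65 and Zfp738 lie in the same cluster on chromosome 13 (clusters are defined below). The first fingers of Zfp65 and Zfp738 are identical in sequence. The 4 examples are therefore not independent occurrences of the motif.
Zfp455 (chr13:67194411-67194510, plus strand): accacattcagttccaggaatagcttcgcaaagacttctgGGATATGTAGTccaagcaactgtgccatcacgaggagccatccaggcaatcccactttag
Zfp84 (chr7:29768490-29768589, plus strand): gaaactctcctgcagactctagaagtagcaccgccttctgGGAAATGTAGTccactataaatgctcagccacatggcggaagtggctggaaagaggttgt
Zfp65 (chr13:67729131-67729230, minus strand): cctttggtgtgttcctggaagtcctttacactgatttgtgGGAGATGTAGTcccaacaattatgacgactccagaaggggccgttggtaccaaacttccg
Zfp738 (chr13:67683508-67683607, minus strand): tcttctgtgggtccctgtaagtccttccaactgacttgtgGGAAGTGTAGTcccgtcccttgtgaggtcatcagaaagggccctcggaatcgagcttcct
The motif begins 55, 22, 17 and 55 bases before the start in Zfp455, Zfp84, Zfp65 and Zfp738. Zfp455 was at 3.11, 2.75 and 3.70 FPKM in L-OHP and 1.49, 1.32 and 2.11 FPKM in L-OHP+FUC (-0.67, adjusted p = 0.0192). Zfp84 was at 4.12, 4.36 and 4.37 FPKM against 2.92, 2.94 and 3.23 FPKM (-0.39, adjusted p = 0.0192). The groups of both were separate.

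Zfp65 was at 3.86, 3.16 and 4.65 FPKM against 1.66, 1.91 and 2.45 FPKM (-0.70, adjusted p = 0.0193). Zfp738 was at 1.47, 1.37 and 1.99 FPKM against 0.477, 0.658 and 0.983 FPKM (-0.62, adjusted p = 0.0261), and at 0.01 after the correction. These groups were separate too, and all 4 calls were lost without L-OHP replicate 1 or L-OHP+FUC replicates 1 or 2, with an adjusted p of up to 0.0844. Of the 41 members with the motif 11 fell (26.8%), with a median of -0.39, and of the 168 with a window and no match 56 fell (33.3%), with a median of -0.33. Over all tested genes 19.3% fell. The difference between the members with and without the motif was not tested, and the share and the median differed in opposite directions.

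Position on the chromosomes was described by 23 clusters of at least 3 tested members with gaps of at most 1 Mb, which held 148 of the 250 members. Of the clustered members 44 fell (29.7%) and 2 rose, and of the 102 others 35 fell (34.3%) and 3 rose. Both shares stand against 19.3% lower over all tested genes. The largest cluster, of 19 members on chromosome 17 (mm10 positions 21008903 to 23564238), had 8 that fell (42.1%) and a median of -0.62. In it 18 of 19 members had a negative value, Zfp677 and Zfp160 (-0.83, adjusted p = 0.0156) among those that fell. A negative value was also found in 83.2% of all members, 98% of those at or below 42% GC and 60.9% of all tested genes. The exception in the cluster was Zfp213 (0.20), whose GC content was 59.5%. After the correction 4 of the 19 were lower (21.1%, against 12.1% of all tested genes), with a median of -0.32. The 8 became 1, 2, 3 and 1 without L-OHP replicate 1, L-OHP replicate 3, L-OHP+FUC replicate 1 and L-OHP+FUC replicate 2. These are 5.26%, 10.5%, 15.8% and 5.26%, against 8.52%, 13%, 7.59% and 6.91% of all tested genes.

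The clusters spanned a range of medians. The lowest was that of the 3 members on chromosome 2 (177464733 to 178078476), Zfp970, Zfp971 (-0.98, adjusted p = 0.0712) and Zfp931 (-0.79, adjusted p = 0.0167), with a median of -0.98. At the other end, the 8 members of a cluster on chromosome 6 (47835661 to 48623227), Zfp746 among them, had a median of 0.16 with 0 called lower and 1 higher. The 8 members of a cluster on chromosome 7 (24081924 to 25227507) had a median of -0.05 and 0 calls. In the 5-member cluster on chromosome 7 from 4915217 to 5053723, Zfp628 rose and Zfp579 fell, although both are above 63% GC. Members of a cluster share sequence and base composition, so they are not independent.

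**Figure D5:**
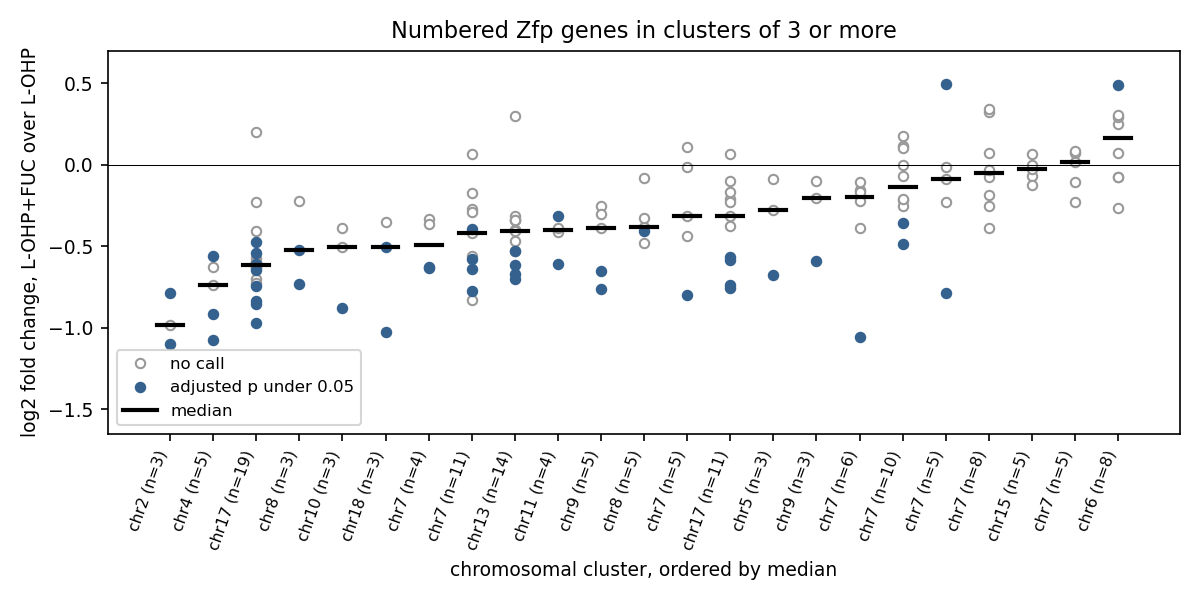
Points are members of the 23 clusters, placed by log2 fold change, with the chromosome and number of members under each cluster; filled points passed limma at an adjusted p under 0.05 and bars are medians. Cluster medians run from -0.98 on chromosome 2 to 0.16 on chromosome 6, and calls in both directions occur in 1 of the clusters of 5 members on chromosome 7.

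Reads of related copies may be divided among genes, and how the authors assigned them is not given in the sources used here. For 41 members over 10% of the 50-base words of the longest transcript also occur in transcripts of other genes, and 16 of these fell (39%). Of the 209 with 10% or less 63 fell (30.1%) and 5 rose, where 19.3% of all tested genes fell. Other genes overlapped 50 members on the same strand and 87 on the opposite strand, and reads of such pairs may not be told apart.

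The authors' deposited table gave 63 of the 250 members a q-value under 0.05 with a lower mean in L-OHP+FUC and 5 with a higher mean, where 12.9% and 9.93% of the tested genes did. Of the 79 members that fell in limma 58 were among the 63, and of the 5 that rose 4 were among the 5 in the authors' deposited table. The mark of significance in the authors' deposited table was set for 58 of the 250 members with a lower mean and 1 with a higher mean, and for 8.27% and 1% of the tested genes. The mark did not follow the authors' q-value alone. It was set for Zfp14 (ratio of means 0.443, authors' q-value 0.115) and not for Zfp148 (0.543 and 0.00102).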

How the data were processed

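RNA of 3 L-OHP and 3 L-OHP+FUC samples was depleted of ribosomal RNA and sequenced from random primers, per the labels' protocols. The submitters' processing notes name bcl2fastq 2.0, HISAT2, StringTie, DESeq2, limma and the build mm10, without their roles. How strand and related copies were treated is not given in the sources used here.

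Per the file headers, the authors deposited FPKM per gene and library; a value of 0.0001, which stands for 0 there, was read as 0. Per the file headers, the authors also deposited the fold of the group means (a ratio), its log2, and p-value and q-value columns, which were used only where the authors' deposited table is named.

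Low values came out as whole fragments, within 0.05, in 46.0% to 54.6% of cases at the best of the steps tried. Without steps 10% would do so at a given step. The other values were not whole, so no counts were recovered, no count test was run, and no depth or counting interval is given.

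limma 3.58.1 (R 4.3.3) was fitted to log2(FPKM + 1) of 12084 genes, those that reached 0.5 FPKM in 3 or more of the 6 libraries, with an intensity trend, two-sided, with Benjamini-Hochberg adjustment over all of them at 0.05. Every adjusted p of the text comes from this fit unless an alternative is named. The fit was tested on simulated data. Replicates of a group shared 0 identical values.

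GENCODE M21 gave coordinates and, for the longest transcript, GC content and length (99.5% of rows matched, all 250 members). KRAB boxes and fingers were searched with letter patterns in GENCODE coding sequences translated for 248 members; the KRAB pattern was chosen after the files were read. A C2H2 finger was counted where cysteines 2 to 4 residues apart and histidines 3 to 5 apart were separated by 12 residues. The GC and length correction subtracted from each library loess trends (span 0.3) of its deviations from the gene means.

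The members and all lists were chosen with earlier results of these data known. Named were the 10 members with the smallest p among those that fell, those that rose, the 8 highest, up to 3 of the most abundant members of each role list, Trim28, Setdb1 and 4 other corepressors with the smallest p, and those nearest the level threshold. Other members are named where a count, cluster or motif rests on them and were chosen after their values were seen. In all, 16 alternatives were run.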

Additional observations from a re-analysis of the deposited data

How the results depend on the processing

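The median log2 fold change of the members was negative in all 16 alternatives, while the counts of calls were not stable. Against 79 lower and 5 higher, there were 27 and 3 with no filter (10.8% and 1.2%, against 6.12% and 2.26% of all genes in that fit), 12 and 2 of 33 with a mean of at least 5 FPKM (36.4% and 6.06%, against 16.3% and 12.7%), 34 and 15 with quantile normalization, and 44 lower with the GC and length correction. With the replicate block 64 were lower and 3 higher (25.6% and 1.2%, against 14.6% and 4.58%). With the GC and length correction and the replicate block 17 were lower and 2 higher (6.8% and 0.8%, against 6.68% and 5.18%), so that the excess of lower calls was gone. Replicate numbers gave no clear pairing of the samples: the deviations of same-numbered samples correlated at -0.04, -0.07 and 0.08, and not every sample correlated best with its own number. With so few samples this cannot exclude that same-numbered samples shared a culture or animal. Leaving out 1 library gave 16 to 88 lower and 1 to 5 higher. The median was -0.53 with a pseudocount of 0.1, -0.13 with quantile normalization and -0.16 with the GC and length correction, with or without the replicate block. With median ratio rescaling 55 members (22%) were lower and 7 (2.8%) higher, against 13.9% and 13.1% of all tested genes. Each setting that left out a library tested 1 sample fewer.

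Of 66 genes named in the text, calls were lost for 27 with the GC and length correction and the replicate block, 15 with the correction alone, 13 with no filter, 10 with quantile normalization, 7 each with median ratio rescaling and the replicate block, 1 with a pseudocount of 0.1 and 2 to 25 when 1 library was left out. Of those with a call, 1 changed sign, Zfp738, at 0.012 after the GC and length correction with or without the replicate block. Its lower call was lost there too, in addition to the 27 and the 15. Among genes without a call, the sign changed for Zfp609 with median ratio rescaling (0.092), quantile normalization (0.20) and the GC and length correction (0.13), for Zfp446 with quantile normalization (0.13) and the correction (0.0083), for Zfp202 (0.0075) and Zfp451 (0.016) with quantile normalization, and with the correction, with or without the block, for Zfp451 (0.34), Zfp219 (-0.18), Zfp229 (0.15) and Zfp513 (-0.15). The sign also varied with the library left out, over -0.12 to 0.34 for Zfp568, -0.030 to 0.081 for Zfp219, -0.11 to 0.13 for Zfp513, -0.053 to 0.057 for Zfp609 and -0.29 to 0.22 for Zfp263. The causes were not tested. edgeR and DESeq2 were not run, since no counts were recovered.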

Other observations

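Other families of zinc finger genes were counted beside all tested genes, of which 19.3% fell and 7.67% rose. Of 35 tested Zbtb genes, whose products join fingers to a BTB domain, 10 fell and 1 rose, with a median log2 fold change of -0.28. Of 16 Zscan and Zkscan genes, which carry a SCAN domain, 4 fell and 0 rose, with a median of -0.30. Of 22 Zfp genes with a letter name 7 fell and 0 rose, with a median of -0.46, and their median GC content was 41.2%. Of 14 Klf and Sp genes, which bind GC boxes, 2 fell and 4 rose, with a median of 0.09. The differences between these families were not tested.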
